A study of Mus musculus with 8 samples.

Results

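The 10 transcription factor genes followed here steer blood progenitors towards the basophil or the mast cell fate: Gata2, Gata1, Cebpa, Mitf, Runx1, Stat5a, Stat5b, Ikzf1, Irf8 and Spi1. They were found by gene name in the transcript tables, and the levels of all their annotated transcripts were summed, so that they make up 10 of the 55487 genes measured. RNA was sequenced from bone marrow cells of C57BL/6J mice in 4 groups of 2 libraries: basophils and pre-basophils (pre-Baso) of mice labelled floxed out, which lack Nfil3 (Nfil3-depleted, deficient below), and the same populations of littermate control (ctrl) mice with the wild type genotype. Both populations were sorted as lineage-negative, CD34-, ckit- and CD200R3+ cells. MAR1 staining, an antibody against the IgE receptor, was intermediate on basophils and high on pre-Baso. The labels do not name what removed the floxed gene, nor the age of the mice. The series describes the 2 libraries of a group as biological duplicates.

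GATA2 and C/EBPα are known to act together in the common progenitor of basophils and mast cells. High C/EBPα favours basophils and MITF, which opposes it, favours mast cells. STAT5, switched on by IL-3, raises GATA2, RUNX1 is needed to make basophils, IRF8 acts upstream of GATA2 in earlier progenitors, and PU.1 (the product of Spi1) and Ikaros (Ikzf1) open and close chromatin in many blood lineages. NFIL3 is itself a basic leucine zipper repressor that shapes several immune lineages.

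Runx1 and Gata2 each start from a distal and a proximal promoter. These pairs are printed because the coverage of the proximal first exon of Runx1 differed between the populations, and because the distal first exon of Gata2 had the higher coverage per base. RefSeq (GRCm38.p6) gives 17 promoter windows, each of 250 bases before and 50 bases after a start, for 9 of the 10 genes. The capitals mark letters searched on both strands, as found or as their reverse complement. TGTGGT is a core of RUNX sites. An E-box, the kind of site that MITF binds, was searched as CACGTG. The letters for PU.1 sites were GAGGAA.
Runx1 distal promoter, chr16:92826025-92826324, minus strand: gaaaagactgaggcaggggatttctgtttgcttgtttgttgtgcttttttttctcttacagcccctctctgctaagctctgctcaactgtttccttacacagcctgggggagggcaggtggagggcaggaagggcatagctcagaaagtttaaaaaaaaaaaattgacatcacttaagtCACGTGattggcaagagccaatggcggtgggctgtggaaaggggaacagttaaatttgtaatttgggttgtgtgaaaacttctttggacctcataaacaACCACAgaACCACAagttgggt
Runx1 proximal promoter, chr16:92697280-92697579, minus strand: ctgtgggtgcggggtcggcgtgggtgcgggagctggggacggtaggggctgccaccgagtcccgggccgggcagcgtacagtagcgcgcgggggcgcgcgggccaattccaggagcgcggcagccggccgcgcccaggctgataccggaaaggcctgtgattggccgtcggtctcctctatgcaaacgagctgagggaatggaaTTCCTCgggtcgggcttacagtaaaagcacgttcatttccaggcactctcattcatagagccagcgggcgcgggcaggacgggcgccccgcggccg
Gata2 distal promoter, chr6:88193641-88193940, plus strand: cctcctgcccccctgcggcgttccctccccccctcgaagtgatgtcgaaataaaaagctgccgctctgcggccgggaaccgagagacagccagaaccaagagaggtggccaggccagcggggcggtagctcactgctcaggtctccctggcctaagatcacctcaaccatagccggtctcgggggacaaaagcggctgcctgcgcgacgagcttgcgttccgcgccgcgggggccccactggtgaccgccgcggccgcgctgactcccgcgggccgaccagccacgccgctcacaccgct
Gata2 proximal promoter, chr6:88198414-88198713, plus strand: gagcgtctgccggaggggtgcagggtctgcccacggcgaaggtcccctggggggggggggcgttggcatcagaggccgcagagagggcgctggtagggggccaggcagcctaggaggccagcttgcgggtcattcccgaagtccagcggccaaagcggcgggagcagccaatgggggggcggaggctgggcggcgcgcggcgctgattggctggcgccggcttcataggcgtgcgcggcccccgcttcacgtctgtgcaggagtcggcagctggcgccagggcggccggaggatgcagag

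The distal Runx1 window held TGTGGT at 2 places and CACGTG at 1, and the proximal window held GAGGAA at 1. Over all 32851 windows, 16.8% held TGTGGT, 7.15% CACGTG and 28.3% GAGGAA. The Gata2 windows held none of the letters searched, which also included GATAA (GATA factors; 25.4% of all windows), TTCNNNGAA (STAT; 8.3%) and CATGTG (a second E-box; 14.2%). The NFIL3 letters TTACGTAA and TTATGTAA were in 0 of the 17 windows, against 0.119% and 0.938% of all windows. TTCNNNGAA was in 2 member windows, of Irf8 and Ikzf1, and GATAA in 2, both of Mitf. None of these matches was tested as a binding site.

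The labels held for the targeted gene. Nfil3 had 0.85 and 1.32 TPM in deficient basophils, against 20.5 and 22.5 TPM in control basophils, and 0 and 0.62 TPM in deficient pre-Baso, against 6.61 and 7.65 TPM in control pre-Baso. TPM is a length-scaled share of all transcript levels in a library. The sums of 10 basophil markers were 5020 to 10700 TPM in basophils and 20600 to 34800 TPM in pre-Baso. Prss34 made up most of each sum, at 2670 to 9490 and 19000 to 25000 TPM, so the sums do not describe all 10. Fcer1a, Cpa3 and Il3ra were also lower in basophils. Hdc (135 to 155 against 70.6 to 95.2 TPM), Il4 (65.4 to 103 against 38.1 to 43.4 TPM) and Itga2 (4.43 to 6.69 against 1.9 to 3.12 TPM) were higher in basophils. Of the mast cell markers, 5 of 9 were at 0 in every library. Cma1, a mast cell chymase and the most abundant of the 9, had 1.17 and 0.646 TPM in deficient basophils, against 0 TPM in both control ones, and 2.41 and 2.0 TPM in deficient pre-Baso, against 0 and 0.715 TPM in control pre-Baso. Cma1 was called between genotypes in neither population (limma, adjusted p = 0.399 in basophils and 0.709 in pre-Baso). Kit, which the sort selected against, did not pass 0.641 TPM. Mcpt8, a basophil protease, was at 2.73 and 1.98 TPM in deficient basophils, against 969 and 1400 TPM in control basophils, and at 4.08 and 6.04 TPM in deficient pre-Baso, against 6240 and 7890 TPM in control pre-Baso. The allele that removed Nfil3 is not named, so an effect of that allele on Mcpt8 or Cma1 and an effect of Nfil3 loss cannot be told apart. The first library of each basophil group stood apart in markers of other cells: their 8 eosinophil markers summed to 188 TPM in the deficient and 2580 TPM in the control library, against 31.0 and 35.4 TPM in the second libraries. Prg2 made up most of the first-library sums, with 152 and 2350 TPM, against 18.9 and 19.4 TPM in the second libraries. Ear1, Ear2, Ear6 and Epx followed it. Siglecf (4.61 and 10.3 against 5.83 and 8.97 TPM) and Ccr3 (2.86 and 4.9 against 2.8 and 4.75 TPM) differed little. The 10 monocyte, macrophage and dendritic cell markers summed to 398 and 448 TPM in the first libraries, against 69.2 and 64.5 TPM in the second libraries and 20.6 to 36.5 TPM in pre-Baso. In bulk RNA, fewer cells of a type and less RNA per cell cannot be told apart.

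Gata2 was by far the most abundant of the 10 and Mitf was close to absent. Averaged over 8 libraries the order of levels was Gata2 (240 TPM, rank 121 of 21897 protein-coding genes), Cebpa (93.5), Spi1 (74.0), Runx1 (41.7), Gata1 (20.3), Ikzf1 (19.8), Stat5b (9.45), Stat5a (7.53), Irf8 (1.60) and Mitf (0.0629). Several neighbours in that order did not separate. The libraries of Cebpa and Spi1 overlapped in basophils (78.3 to 110 and 93.0 to 107 TPM) but not in pre-Baso (80.4 to 102 and 45.7 to 52.9 TPM), where Spi1 instead overlapped Runx1 (37.4 to 50.4 TPM). Gata1 and Ikzf1 overlapped in both populations. The place of Gata1 depends on a transcript covered mostly on 1 exon, described below. Its transcript without that exon had 7.35 to 10.3 TPM, within the range of Stat5b. The ranges of Stat5b and Stat5a also overlapped, although Stat5b was the higher in each of the 8 libraries.

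**Figure D1:**
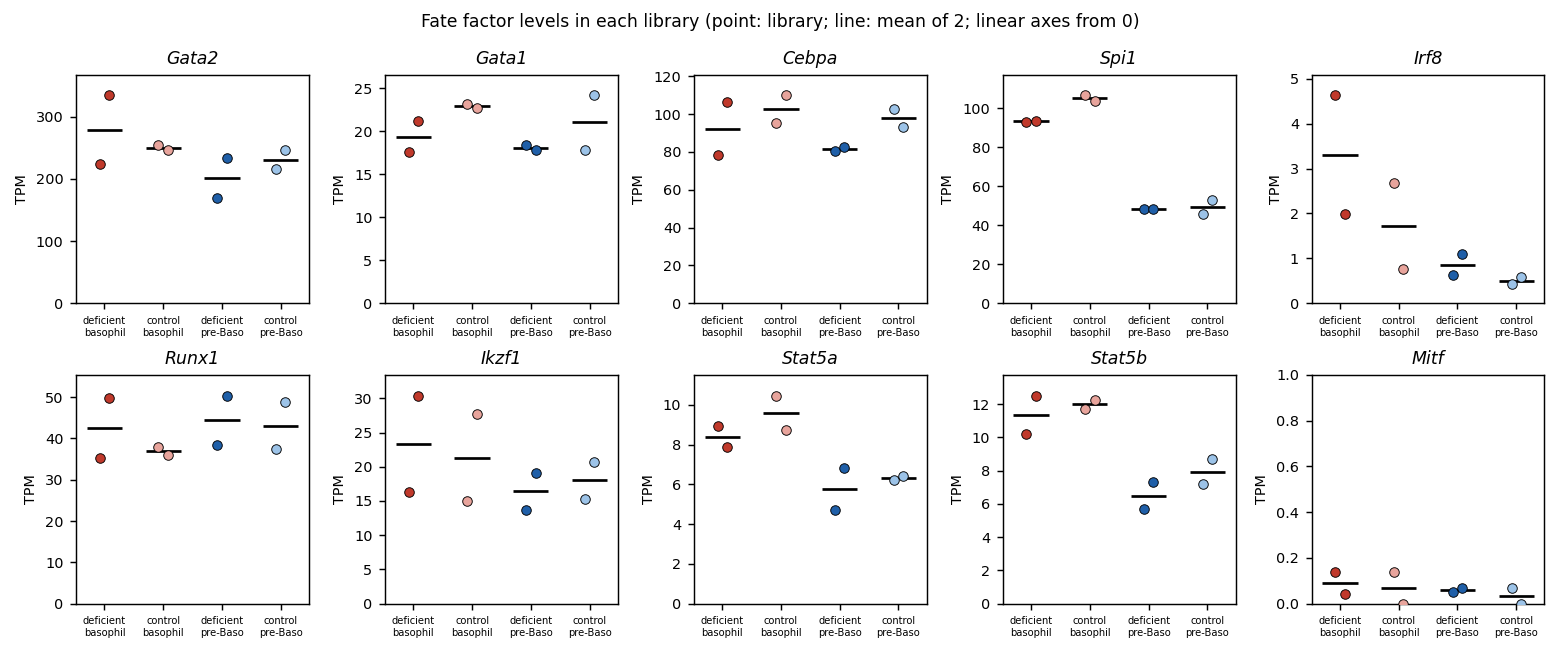
Levels of the 10 fate factors in each library (points, TPM on linear axes from 0) with the mean of the 2 libraries of a group (lines). Spi1, Stat5a and Stat5b are higher in all 4 basophil libraries than in all 4 pre-Baso libraries. The 2 basophil libraries of each genotype are far apart for Irf8, and Mitf stays at or under 0.14 TPM.

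Spi1 was about doubled in basophils over pre-Baso in both genotypes, and no change was detected in the GATA factors or Cebpa. Stat5b was called higher in deficient cells, a call lost in each of the 8 fits with 1 library left out. In control cells Stat5b was higher as well, by 0.54 log2, but was not called (limma, adjusted p = 0.07). Of the 9 genes that passed the expression filter, 1 was called higher in control cells (limma, adjusted p under 0.05 over all 12511 genes tested), where 12.6% of all genes were called higher and 10% lower. In deficient cells 2 were called higher, against 6.79% of all genes, and none lower, against 4.11%. Averaged over both genotypes, a contrast added after the values were seen, 4 of 9 were called higher, against 20.4% of all genes, and none lower, against 13.3%. Basophil libraries lay above pre-Baso libraries without overlap for 4 of 9 genes in deficient cells, against 36.6% of all genes, and for 5 of 9 in control cells, against 36.4%. All 4 basophil libraries lay above all 4 pre-Baso libraries for 3 of 9, against 21.3%. The median log2 difference of the 9 genes was 0.31 in this average, beside 0.09 over all genes tested.

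Spi1 encodes PU.1, an ETS factor of the myeloid lineages. It had 93.0 and 93.6 TPM in deficient basophils against 48.2 and 48.1 TPM in deficient pre-Baso, and 107 and 104 TPM in control basophils against 45.7 and 52.9 TPM in control pre-Baso. All 4 basophil libraries were above all 4 pre-Baso libraries. The log2 difference was 0.94 ± 0.13 (SE; limma, adjusted p = 0.0077) in deficient and 1.08 ± 0.13 (adjusted p = 0.00143) in control cells, with 95% intervals of 0.63 to 1.25 and 0.77 to 1.39. Averaged over genotypes it was 1.01 ± 0.10 (adjusted p = 0.000228), a fold of 2.01 on TPM + 1. The coding transcript Spi1-201 (ENSMUST00000002180) held 96.0% to 99.0% of the summed level in every library. Without both first basophil libraries the average was still called (adjusted p = 0.0135). In deficient cells the call was lost when either first library of that genotype was left out, with an adjusted p of 0.0541 without the basophil one and 0.0664 without the pre-Baso one.

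Stat5a and Stat5b encode the STAT5 proteins that carry IL-3 receptor signals to the nucleus. Stat5b had 10.2 and 12.5 TPM in deficient basophils against 5.69 and 7.30 TPM in deficient pre-Baso, and 11.7 and 12.3 TPM in control basophils against 7.21 and 8.68 TPM in control pre-Baso. Stat5a had 8.92 and 7.87 TPM in deficient basophils against 4.69 and 6.85 TPM in deficient pre-Baso, and 10.5 and 8.76 TPM in control basophils against 6.20 and 6.43 TPM in control pre-Baso. For both genes the basophil libraries lay above the pre-Baso libraries without overlap. Stat5b differed by 0.72 ± 0.19 log2 (SE; limma, adjusted p = 0.0438) in deficient cells and by 0.54 ± 0.19 (adjusted p = 0.07) in control cells. The Stat5b call in deficient cells was lost in each of the 8 fits with 1 library left out (adjusted p = 0.0559 to 0.244). The averages over genotypes were 0.63 ± 0.13 for Stat5b (adjusted p = 0.00767) and 0.51 ± 0.14 for Stat5a (adjusted p = 0.0242). The averaged Stat5a call was lost in 5 of 8 fits with 1 library left out (either control pre-Baso library, the first deficient pre-Baso library or either first basophil library) and without both first basophil libraries (adjusted p = 0.188). The most abundant transcripts of the 2 genes share 608 windows of 50 bases. These are 15.8% of the Stat5a windows and 11.8% of the Stat5b windows, so reads there cannot be told apart with certainty. The 3′ end of Stat5a also overlaps Stat3.

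Irf8, a factor of monocytes and dendritic cells, was the lowest of the 9 tested genes in each library. Protein-coding genes took only 18.7% to 22.4% of TPM, and scaled to these genes alone Irf8 ran from 2.29 to 24.4 TPM. On the scale used elsewhere it had 4.63 and 1.99 TPM in deficient basophils against 0.62 and 1.09 TPM in deficient pre-Baso. In control cells it had 2.67 and 0.76 TPM in basophils against 0.43 and 0.58 TPM in pre-Baso. Within each genotype both basophil libraries were above both pre-Baso libraries, but the second control basophil library was below the second deficient pre-Baso library. The average difference was 0.96 ± 0.28 log2 (SE; limma, adjusted p = 0.031), and it was 0.46 (adjusted p = 0.12) without both first basophil libraries. The call was also lost in 6 of 8 fits with 1 library left out, the second library of each basophil group being the exception (adjusted p = 0.0525 to 0.099 in those 6). The highest Irf8 in each genotype was in the first basophil library. The sum of the 10 monocyte, macrophage and dendritic cell markers was also highest there. Cd74, of the MHC class II pathway and the most abundant of them, had 302 and 14.1 TPM in the first and second deficient basophil libraries. It had 333 and 7.32 TPM in the control ones. Ly6c2, the next, had 45.2 and 27.2 TPM in the deficient and 44.5 and 22.8 TPM in the control ones. Ccr2 did not follow, with 23.3 and 21.9 TPM in the deficient and 29.8 and 30.3 TPM in the control ones. All 10 markers of that list are in the files, 7 of them reached 1 TPM in at least 2 libraries and Flt3 was at 0 in 7 of 8 libraries. Their part in the Irf8 result was not tested.

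**Figure D2:**
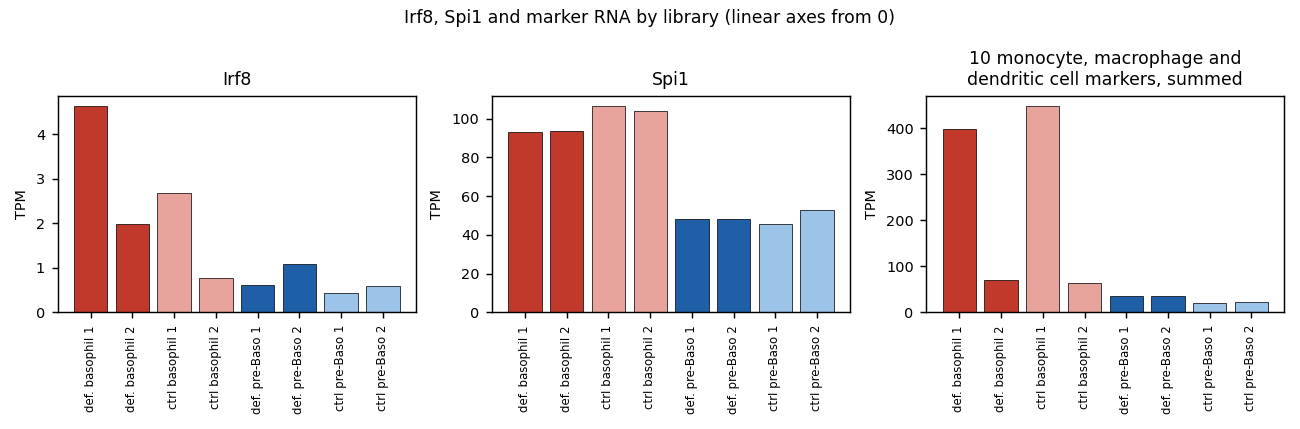
TPM of Irf8, of Spi1 and of the sum of 10 monocyte, macrophage and dendritic cell markers in each library (bars, linear axes from 0). Irf8 and the marker sum are highest in the first basophil library of each genotype, whereas Spi1 is alike in the first and second basophil libraries.

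Gata2, the gene of the basophil and mast cell progenitor GATA factor, had 224 and 334 TPM in deficient basophils against 169 and 233 TPM in deficient pre-Baso, and 254 and 246 TPM in control basophils against 215 and 246 TPM in control pre-Baso. The populations overlapped in deficient cells and nearly touched in control cells. The average difference was 0.29 ± 0.15 log2 (SE; limma, adjusted p = 0.179, 95% interval -0.06 to 0.64). Its distal first exon (chr6:88193891-88194000) had a coverage of 27.6 and 44.1 in deficient basophils, 28.7 and 24.8 in control basophils, 33.2 and 45.1 in deficient pre-Baso and 31.3 and 34.0 in control pre-Baso, per 100 megabases assigned to protein-coding genes. The stretch of the proximal first exon that Gata2-201 alone holds (chr6:88198402-88198673) lay between 9.51 and 12.8 in basophils and between 6.02 and 9.65 in pre-Baso. Per base the distal exon, which is the shorter, was the more covered in every library. The transcript estimate put 53.3% to 88.5% of the gene level on the proximal Gata2-201 (ENSMUST00000015197) and 8.75% to 42.5% on the distal Gata2-202 (ENSMUST00000170089). Both the 53.3% and the 42.5% came from the second deficient basophil library. Gata2-202 held 10.6% in the first deficient basophil library, 11.7% and 8.75% in control basophils and 23.8% to 30.4% in pre-Baso. These shares conflict with the first-exon coverage, in which the distal exon was the more covered. Coverage of the distal exon also overlapped between populations, at 24.8 to 44.1 in basophils and 31.3 to 45.1 in pre-Baso. The shares therefore do not show a lower use of the distal start in basophils.

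Gata1, which GATA2 can activate and which mast cells, eosinophils and basophils use, had 17.6 and 21.2 TPM in deficient basophils against 18.4 and 17.8 TPM in deficient pre-Baso, and 23.2 and 22.7 TPM in control basophils against 17.9 and 24.2 TPM in control pre-Baso. The populations overlapped, and the average difference of 0.11 ± 0.13 log2 (SE; limma, adjusted p = 0.552) turned to -0.02 when assigned bases replaced TPM. Between 42.1% and 58.1% of the summed level came from the transcript Gata1-202 (ENSMUST00000125418). Its coverage came almost wholly from 1 upstream exon of 189 bases (chrX:7976480-7976668), at 7.90 to 12.5 in all libraries, while its first 66 bases were at 0 to 1.48 and the exons it shares with Gata1-201 at 1.13 to 4.23. Gata1-201 (ENSMUST00000033502), without that exon, had 7.35 and 9.08 TPM in deficient basophils, 8.83 and 10.3 TPM in control basophils, 8.14 and 8.16 TPM in deficient pre-Baso and 9.22 and 10.3 TPM in control pre-Baso.

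Cebpa encodes the factor that sets the basophil side of the choice. It had 78.3 and 106 TPM in deficient basophils against 80.4 and 82.7 TPM in deficient pre-Baso, and 95.1 and 110 TPM in control basophils against 102 and 93.1 TPM in control pre-Baso. The populations overlapped in both genotypes (average 0.11 ± 0.12 log2, SE; limma, adjusted p = 0.515, 95% interval -0.17 to 0.39). An antisense gene, Gm45091, overlaps it, and no strand option was used in quantification, so their reads cannot be told apart.

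Mitf, the mast cell factor opposed to C/EBPα, reached at most 0.14 TPM. It had 0.14 and 0.04 TPM in deficient basophils, 0.14 and 0 TPM in control basophils, 0.05 and 0.07 TPM in deficient pre-Baso and 0.07 and 0 TPM in control pre-Baso. It failed the filter of 1 TPM in 2 libraries and was not tested. Between 0 and 0.35 kilobases of aligned sequence were assigned to it per library. Depth limits what can be said of so low a level.

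Runx1 encodes the core-binding factor needed for basophil production, and its summed level did not separate the populations. It had 35.3 and 49.7 TPM in deficient basophils against 38.4 and 50.4 TPM in deficient pre-Baso, and 37.9 and 35.9 TPM in control basophils against 37.4 and 48.8 TPM in control pre-Baso (average -0.14 ± 0.16 log2, SE; limma, adjusted p = 0.537). One of its transcripts was called. Runx1-202 (ENSMUST00000113956), from the proximal promoter printed above, had 9.39 and 13.5 TPM in deficient basophils against 14.0 and 21.5 TPM in deficient pre-Baso, and 6.73 and 8.42 TPM in control basophils against 18.4 and 17.8 TPM in control pre-Baso. All basophil libraries were below all pre-Baso libraries. In a fit over 19472 transcripts, added after the values were seen, it was lower in basophils by -0.87 ± 0.19 log2 (SE; limma, adjusted p = 0.0436), with 4.62% of all transcripts called lower and 6.52% called higher. Its call was lost in each of the 8 fits with 1 library left out, with differences of -1.02 to -0.725 and adjusted p-values of 0.0548 to 0.124, and without both first basophil libraries (-0.681, adjusted p = 0.222). Within deficient cells the adjusted p was 0.36 and within control cells 0.0715, so the transcript was called in neither genotype alone. Runx1-203 (ENSMUST00000168195), whose start at chr16:92696125 adjoins the proximal exon given below, went the other way by 1.29 ± 0.54 log2 (SE). It was not called (limma, adjusted p = 0.194). Its levels were 4.15 and 4.06 TPM in deficient basophils against 2.29 and 0 TPM in deficient pre-Baso. In control cells they were 1.85 and 4.03 TPM in basophils against 0 and 2.15 TPM in pre-Baso. How reads were divided between these 2 transcripts was not tested.

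Coverage of the proximal Runx1 exon was likewise lower in all 4 basophil libraries than in all 4 pre-Baso libraries. It comes from the same reads as the transcript estimate, so it is no independent result. The proximal first exon (chr16:92696126-92697325) had a coverage per 100 protein-coding megabases of 5.67 and 7.01 in deficient basophils, 3.59 and 4.06 in control basophils, 9.99 and 14.4 in deficient pre-Baso and 9.93 and 10.1 in control pre-Baso. The distal exon shared by its 3 distal transcripts (chr16:92825589-92825704) overlapped between populations, at 4.67 to 11.7 in basophils and 4.70 to 8.61 in pre-Baso, and so did the last exon (3.69 to 4.40 and 3.34 to 4.70). Runx1-202 made up 17.8% to 27.1% of the gene level in basophils and 36.4% to 49.1% in pre-Baso, and the distal transcript Runx1-201 (ENSMUST00000023673) 33.0% to 40.6% and 26.2% to 35.8%.

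**Figure D3:**
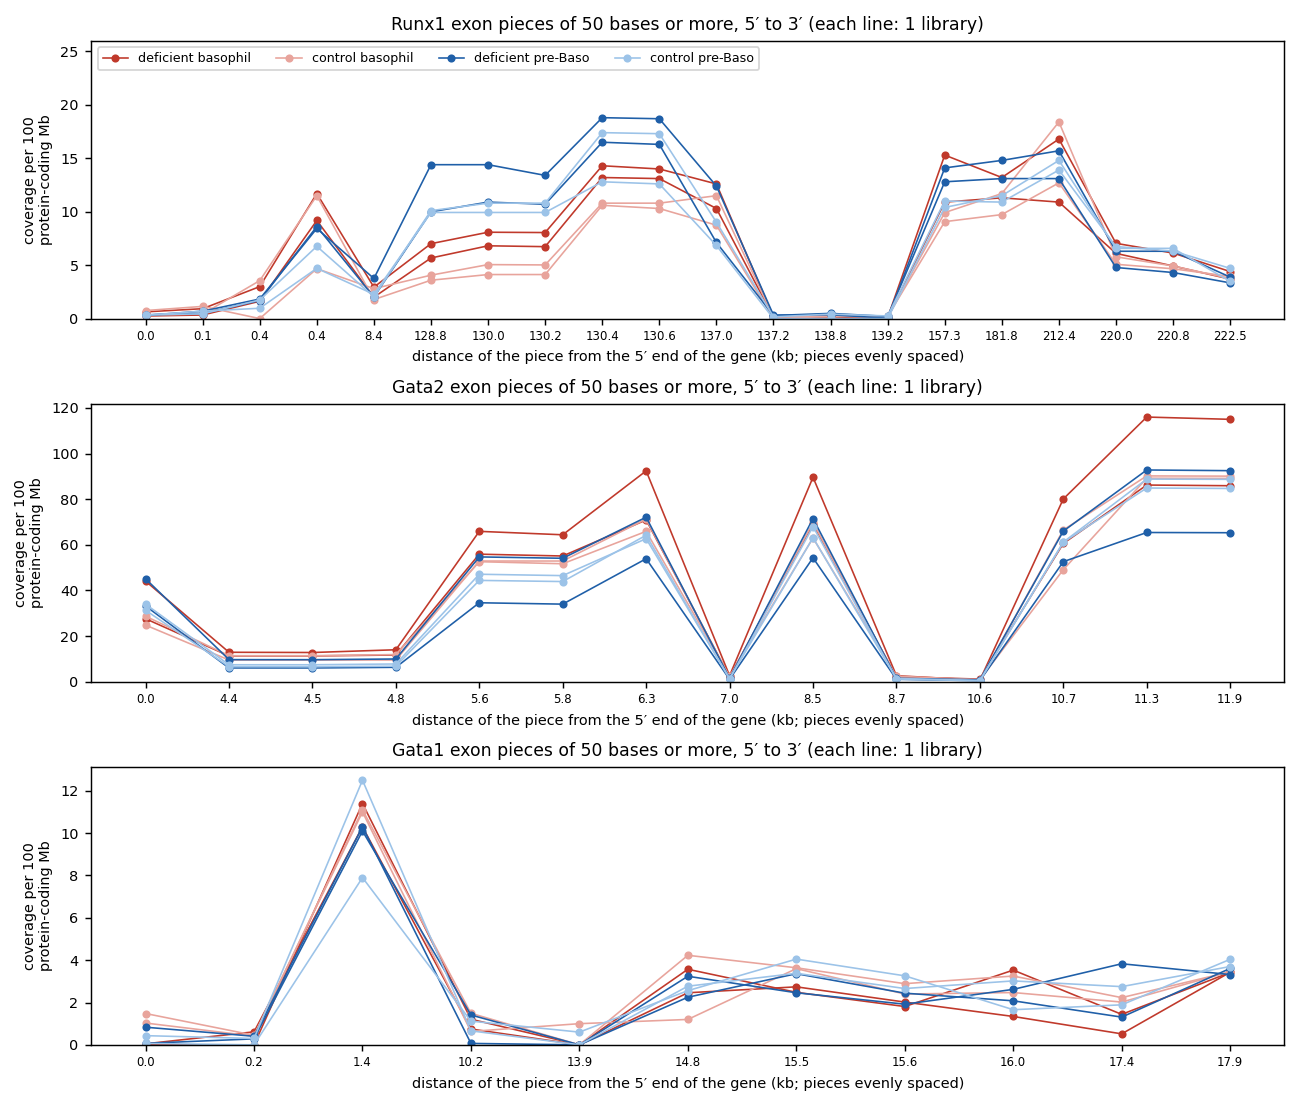
Coverage per 100 megabases assigned to protein-coding genes on exon pieces of at least 50 bases of Runx1, Gata2 and Gata1, from the 5′ to the 3′ end (1 line per library; horizontal axis, distance from the 5′ end of the gene in kb). Basophil libraries lie below pre-Baso libraries on the proximal first exon of Runx1 and overlap them further 3′, the distal first exon of Gata2 exceeds the proximal one, and a single exon 1.4 kb into Gata1 exceeds all others.

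Ikzf1, the Ikaros gene, had 16.4 and 30.4 TPM in deficient basophils against 13.7 and 19.2 TPM in deficient pre-Baso, and 15.0 and 27.7 TPM in control basophils against 15.3 and 20.8 TPM in control pre-Baso. The libraries overlapped between populations in both genotypes. The average difference was 0.31 ± 0.25 log2 (SE; limma, adjusted p = 0.379) on TPM and -0.04 on assigned bases. Its largest transcript was Ikzf1-203 (ENSMUST00000065433) in 4 libraries and Ikzf1-204 (ENSMUST00000076700) in the other 4, which were both deficient basophil libraries, the second control basophil library and the first deficient pre-Baso library.

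None of the 9 tested genes was called between deficient and control cells. In basophils 0 of 9 were called (limma), against 0.056% of all genes, and in pre-Baso 0 of 9, against 0.0639%. The counts were also 0 of 9 for the average over populations (0.0879% of genes) and for the interaction of genotype and population, where 0 of 12511 genes were called and 689 had an unadjusted p under 0.05. Log2 differences, deficient minus control, ran from -0.24 to 0.69 in basophils and from -0.26 to 0.30 in pre-Baso. The 95% intervals of the 9 genes together reached from -0.70 to 1.60 in basophils and from -0.95 to 1.21 in pre-Baso. These bounds are extremes over the genes, unadjusted, and a gene that was not called is not shown to be equal in both genotypes.

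The widest intervals were those of Irf8 and Ikzf1, and the narrowest those of Spi1. Spi1 differed between genotypes by -0.17 ± 0.13 log2 in basophils (SE; 95% interval -0.48 to 0.14; limma, adjusted p = 0.8) and by -0.03 ± 0.13 in pre-Baso (-0.34 to 0.28; adjusted p = 1). Gata2 differed by 0.13 ± 0.22 in basophils (-0.36 to 0.62) and by -0.21 ± 0.22 in pre-Baso (-0.70 to 0.28). Cebpa differed by -0.16 ± 0.17 (-0.56 to 0.23) and -0.26 ± 0.17 (-0.65 to 0.14). In basophils the deficient libraries of Spi1 and Gata1 lay below the control ones without overlap, a pattern that 21.4% of all genes showed. In pre-Baso this held for Cebpa alone, against 19.3% of genes, and Irf8 lay above, against 11.2%. Fold differences were on TPM + 1, which understates those of Irf8.

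**Figure D4:**
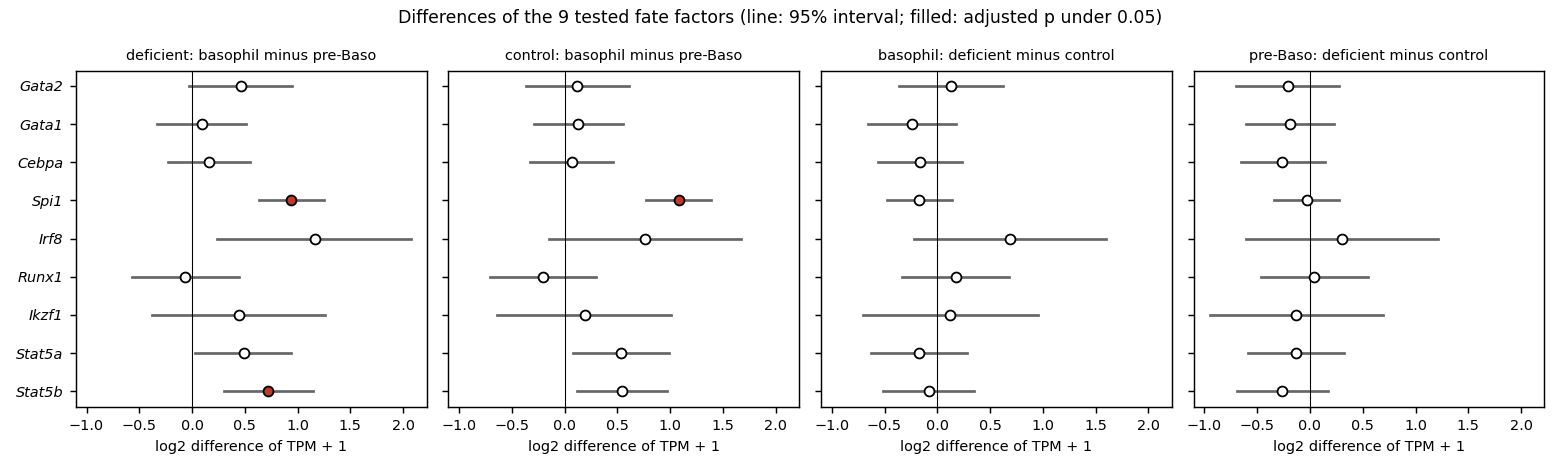
Log2 differences of TPM + 1 (points) with 95% intervals (lines) for the 9 tested fate factors: basophil minus pre-Baso in deficient and in control cells, and deficient minus control in basophils and in pre-Baso. Filled points have an adjusted p under 0.05, and these are Spi1 in both genotypes and Stat5b in deficient cells.

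Genes named for their ties to the members were read from the same fit in the average over both genotypes, and the counts below are of genes called. For comparison, 20.4% of all genes tested passed as higher and 13.3% as lower, and 9.04% and 7.35% did so without both first basophil libraries. The lists were chosen with earlier results of these data known, so the counts set beside these shares are no independent test. Of 16 tested genes of the STAT5 upstream chain and targets, 13 were called higher in basophils and 0 lower (15 were higher by sign), with a median log2 difference of 0.87. Csf2rb2 and Csf2rb, the IL-3 receptor beta chains, whose sequences are near copies so that reads may be shared, averaged 69.9 ± 6.44 and 211 ± 18.3 TPM in basophils and 21.2 ± 3.61 and 78.8 ± 14.3 TPM in pre-Baso (SD, n = 4 libraries each). Pim1, a STAT5-induced kinase, averaged 45.3 ± 4.77 TPM in basophils and 15.5 ± 2.63 TPM in pre-Baso, and Ccnd2, a G1 cyclin, 17.1 ± 1.92 and 6.22 ± 0.726 TPM. Il3ra, the alpha chain of the IL-3 receptor, was not called and went the other way. It had 48.2 to 65.4 TPM in basophils and 66.7 to 71.7 TPM in pre-Baso. Without both first basophil libraries 11 genes of the list were called higher and 0 lower.

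Of 16 tested myeloid targets of PU.1, IRF8 and C/EBP factors, 10 were called higher in basophils and 2 lower (12 were higher by sign; median 0.62). Ncf1, of the phagocyte oxidase, averaged 79.2 ± 8.10 TPM in basophils and 35.5 ± 3.76 TPM in pre-Baso, and the integrin chain Itgam 13.8 ± 3.68 and 3.33 ± 0.821 TPM. Tyrobp, the signalling adaptor DAP12, averaged 2500 ± 237 TPM in basophils and 1580 ± 190 TPM in pre-Baso. Mpo, a granule enzyme of granulocyte progenitors, averaged 51.7 ± 28.6 TPM in basophils and 207 ± 26.2 TPM in pre-Baso. Without both first basophil libraries the counts were 5 higher and 1 lower. Neutrophil markers moved with the libraries as well, with 1880 and 2110 TPM over 9 genes in the first basophil libraries, against 1160 and 1140 TPM in the second and 873 to 1250 TPM in pre-Baso, and their part in these counts was not tested.

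Of 13 tested GATA factor targets, which include Gata1 and Gata2, 5 were called higher and 3 lower (10 were higher by sign; median 0.21). Il4 averaged 86.6 ± 17.7 TPM in basophils and 41.2 ± 2.23 TPM in pre-Baso. Cpa3, a carboxypeptidase of mast cell and basophil granules, averaged 119 ± 29.5 and 350 ± 20.3 TPM, and Fcer1a, the IgE-binding chain, 277 ± 110 and 740 ± 170 TPM. The marker used in the sort recognises the product of Fcer1a, so its difference is no independent result. Without both first basophil libraries 4 were higher and 2 lower.

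Of 27 tested partners and paralogs of the members, 11 were called higher and 2 lower (23 were higher by sign; median 0.29). Runx2, a paralog of Runx1, averaged 11.0 ± 0.874 TPM in basophils and 2.96 ± 0.828 TPM in pre-Baso, Cebpd, a paralog of Cebpa, 13.8 ± 0.323 and 7.18 ± 0.984 TPM, Tal1, a GATA partner, 7.83 ± 1.31 and 3.38 ± 0.80 TPM, and Stat6, the IL-4 STAT, 15.1 ± 2.57 and 7.55 ± 1.67 TPM. Without both first basophil libraries the counts were 4 higher and 1 lower. Of the 12 mast cell genes that MITF drives, 5 were tested, of which 1 was called higher and 2 lower in basophils. Ctsg, cathepsin G, which neutrophil progenitors also make, was the 1 listed gene called between genotypes. It averaged 484 ± 154 TPM in deficient basophils and 87.8 ± 3.73 TPM in control basophils (2.41 ± 0.21 log2, SE; limma, adjusted p = 0.00505; SD, n = 2 each). In pre-Baso it averaged 1670 ± 263 TPM in deficient and 793 ± 67.8 TPM in control cells (SD). That difference of 1.07 ± 0.21 log2 (SE) went the same way but was not called (limma, adjusted p = 0.404). The interaction was not called either (limma, adjusted p = 0.742). Ctsg lies close to Mcpt8 in the genome, and the same limit on the unnamed allele holds for it.

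**Figure D5:**
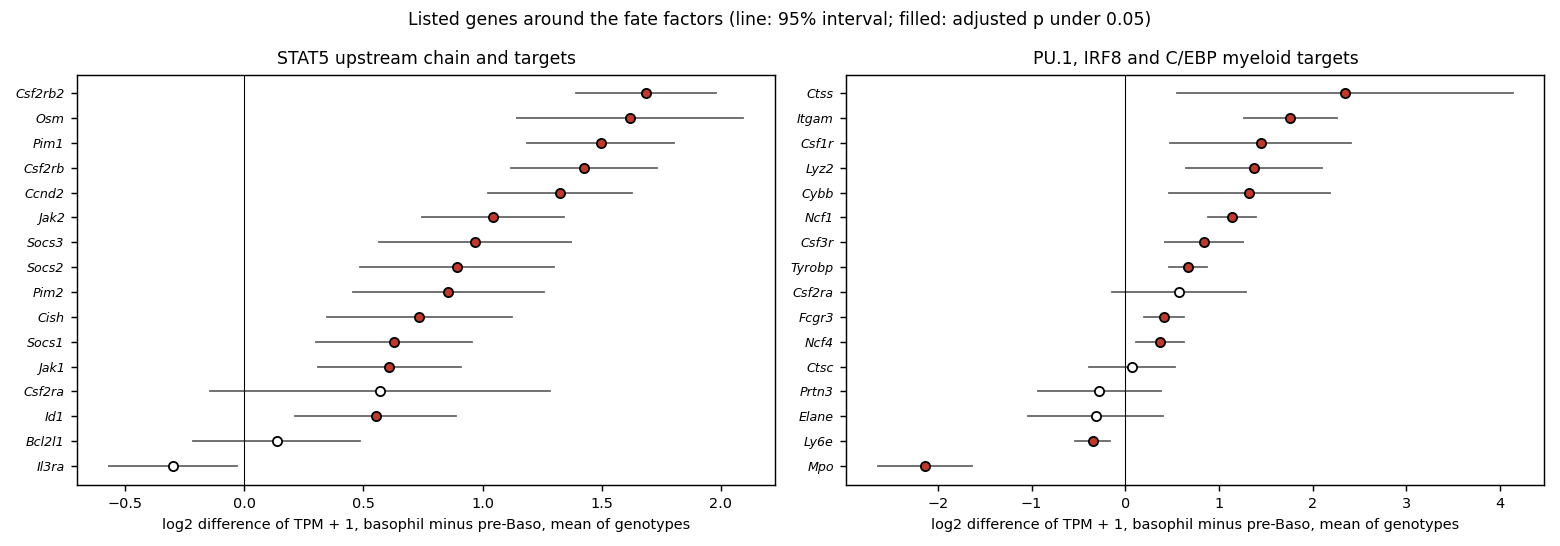
Log2 difference of TPM + 1, basophil minus pre-Baso averaged over genotypes (points), with 95% intervals (lines), for genes of the STAT5 chain and targets and for myeloid targets of PU.1, IRF8 and C/EBP factors. Filled points have an adjusted p under 0.05: 13 of 16 in the first list, all higher, and 12 of 16 in the second, 10 higher and 2 lower.

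The genes whose levels followed the 3 widest-ranging members most closely over the 8 libraries were named by Pearson r on log2(TPM + 1), as a description with no test, and the libraries share 2 populations. Among 4131 protein-coding genes of at least 5 TPM, Tnfaip8l2 (0.999), Tpm4 (0.998) and Slc6a4 (0.998) were most like Spi1, and Iqgap1 (0.997), Ogfrl1 (0.994) and Eif4ebp2 (0.993) most like Stat5b. Irf3 (0.959), Ifi27l2a (0.932) and Ctss (0.931) were most like Irf8 among 4132 genes.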

How the data were processed

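RNA from 8 libraries, 4 groups of 2, was aligned to mm10 with HISAT2 (per the submitters' processing notes) and quantified with StringTie 2.1.4 on Ensembl release 101 transcripts, per the file headers. No strand option is named there. The deposited values per transcript are TPM, FPKM and coverage, stored by the authors as text in an attribute field (other unit: no single numeric column), and no read counts. From these, TPM was summed per gene, and coverage times length gave 271.7 to 398.0 assigned megabases per library, on which the precision of low genes depends. Protein-coding genes took 18.7% to 22.4% of TPM.

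limma 3.58.1 in R 4.3.3 fitted group means with a variance trend (4 residual degrees of freedom) to log2(TPM + 1), a scale that understates low genes, over 12511 genes with at least 1 TPM in at least 2 libraries. P-values were adjusted by Benjamini-Hochberg over all genes, and 0.05 was the threshold. The script was tested on simulated data. Contrasts were genotype within each population and on average, maturation within each genotype, and their interaction; the average maturation contrast and the transcript fit were added later. Other settings were pseudocounts of 0.1 and 5, no filter, a protein-coding scale, assigned bases, a replicate block and leaving out libraries. Replicate numbers were not taken to pair the libraries. The members and lists were chosen with earlier results of these data known. Genes outside the 10 were named by rule. These were at most 4 of a list with the smallest p, the most abundant markers, the genes most like a member, and Nfil3. Flt3 and Il3ra were named after their values were seen. Promoter windows came from RefSeq (GRCm38.p6), with 9 of 10 members matched. A gene of the myeloid target list is not reported here and was left out of that list's counts.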

Additional observations from a re-analysis of the deposited data

How the results depend on the processing

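Of 675 member differences under other settings, 612 kept their direction and their side of the threshold, 28 lost a call, 2 gained one and 33 changed sign, and none of those that changed sign was called. Limits common to all of these are the 2 libraries per group, the lack of read counts and the markers of other cells in both first basophil libraries. The cause of the changes below was not tested.

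Genes called between genotypes in pre-Baso (8) became 23 without the filter, 5 on the protein-coding scale and 3 without both first basophil libraries. In basophils 7 became 16 with a pseudocount of 0.1, 18 without the filter, 18 on the protein-coding scale and 73 on assigned bases. For the average over populations 11 became 19 with a pseudocount of 0.1 and 5 without the filter. For maturation in control cells 2832 became 1516 without the filter and 1032 without both first basophil libraries. In deficient cells 1363 became 298, 4 and, on assigned bases, 2098, and for the average over genotypes 4216 became 2050 without both first basophil libraries. The interaction calls (0) became 2 with a pseudocount of 0.1, 2 on the protein-coding scale, 3 on assigned bases and 1 without both first basophil libraries. Members called in control maturation (1) became 2 on assigned bases, where Stat5b was added. In deficient cells 2 became 1 without the filter and 0 without both first basophil libraries, and for the average 4 became 2 in both of these settings. Replicate numbers were not taken as pairs: correlations of replicate differences were -0.0544 to 0.202 over 6 pairs of groups, highest between the basophil groups, whose first libraries share the markers of other cells. With a replicate block, genes called between genotypes on average were 7, and members called in control maturation were 2, with Stat5b added (adjusted p = 0.0492).

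Values that changed sign were Spi1 between genotypes in pre-Baso (0.0165 on the protein-coding scale, 0.0582 on assigned bases), Stat5b between genotypes in basophils (0.0269) and Runx1 in deficient maturation (0.172) without both first basophil libraries, and, on assigned bases, Gata1 (-0.0153 in control, -0.0277 in deficient cells, -0.0215 on average), Cebpa (-0.00807 in control) and Ikzf1 (-0.231 in control, -0.0398 on average).

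Leaving out 1 library at a time gave these ranges. Between genotypes 5 to 9 genes were called in pre-Baso, with log2 differences of Gata2 -0.439 to 0.0203, Gata1 -0.398 to 0.0176, Runx1 -0.15 to 0.233, Stat5a -0.363 to 0.102, Ikzf1 -0.358 to 0.0977 and Spi1 -0.134 to 0.0736. In basophils 6 to 17 genes were called, with Gata2 -0.159 to 0.417, Cebpa -0.38 to 0.0545, Runx1 -0.0649 to 0.419, Stat5b -0.216 to 0.0566 and Ikzf1 -0.304 to 0.552. On average 7 to 11 genes were called, and for the interaction 0 to 2. Of members, 0 were called in any of these fits. In control maturation 1397 to 2651 genes and, in each fit, 1 member were called, with Gata1 -0.0732 to 0.343, Cebpa -0.0382 to 0.169 and Ikzf1 -0.237 to 0.609. In deficient maturation 19 to 1237 genes and 0 to 1 members were called, with Gata1 -0.0421 to 0.215, Cebpa -0.0574 to 0.377, Runx1 -0.311 to 0.172, Stat5b 0.569 to 0.88 and Spi1 0.935 to 0.945. In maturation on average 2948 to 3662 genes and 2 to 4 members were called, with Stat5a 0.394 to 0.626 and Irf8 0.691 to 1.22.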
